A study of Mus musculus with 8 samples.

Results

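The S100 family is a group of small calcium-binding proteins, of which 8 mouse genes were named for study: S100a1, S100a4, S100a6, S100a8, S100a9, S100a10, S100a11 and S100a13. They were followed through the probe sets annotated with exactly 1 gene symbol, that symbol being one of the 8. This gave 13 of the 12488 probe sets on the array, and they stood for 7 of 8251 genes. S100a11 had no probe set of its own under this rule and is not described. RNA was measured on 8 single-colour Affymetrix mouse arrays, 4 of subconfluent cultures (under 50% confluency) and 4 of a mature confluent monolayer. All samples were cells named mouse aortic endothelial cells in the labels, with an equal number of cells extracted per sample. No strain, passage, culture medium, treatment or genetic change is given in the sources used here. The values are signals, which are linear intensities summarised per probe set and brought to a common target of 500.

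S100 proteins carry a pair of EF-hand motifs, the helix-loop-helix fold that holds calcium, and mostly work as dimers. On binding calcium they open a surface that docks onto other proteins, so they act as adaptors and not as enzymes. S100A10 is the exception, since its loops have lost calcium binding and it stays in the open form, joined to annexin A2. Some members also leave the cell and bind surface receptors. In the vessel wall they are known for links to membrane and cytoskeleton dynamics, to plasmin formation on the endothelial surface and, for S100A8 and S100A9, to the myeloid cells that settle on it.

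A few facts on the arrays bear on all values. Scale factors ran from 3.05 to 13.3 and median signals from 169 to 187. Precision is limited by the 8 arrays. Experiments carry the numbers 1 to 4 in each group. Same-numbered arrays shifted alike and were also compared as 4 pairs, with the experiment number as a block (the paired fit). Chip lot A held replicate 1 of both groups, and lot C held subconfluent replicates 3 and 4 and confluent replicate 3. Lot B held confluent replicates 2 and 4, and lot D held subconfluent replicate 2. Of 15 endothelial markers with a probe set only 1, Eng, reached a mean signal of 200, or 6.67% against 56.6% of all genes. The defining endothelial genes Cdh5 (12.3 in subconfluent and 13.6 in confluent cells), Tek (6.88 and 15.6) and Icam2 (15.1 and 15.7) had mean signals far under that minimum. These are among the lowest of the list, and others lay nearer to it, such as Pecam1 (125 and 97.5) and Sox18 (120 and 179). Of 13 fibroblast and pericyte markers 9 reached it. These RNAs are bulk samples, so fewer cells of a type and less RNA per cell cannot be told apart.

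For most of the family the data allow a sequence view at the gene starts as RefSeq gives them in GRCm38.p6. All of the 8 genes lie on mouse chromosome 3, and 7 of the 8 had a start in the promoter table, S100a10 being the one that did not. The 250 bases before the start of S100a6 and of S100a4 are shown because these genes are close neighbours on the same strand. The span between the starts of S100a1 and S100a13 is shown because these genes are read outward from it on opposite strands. Capitals mark the motifs searched.
S100a6, chr3:90612644-90612893, plus strand: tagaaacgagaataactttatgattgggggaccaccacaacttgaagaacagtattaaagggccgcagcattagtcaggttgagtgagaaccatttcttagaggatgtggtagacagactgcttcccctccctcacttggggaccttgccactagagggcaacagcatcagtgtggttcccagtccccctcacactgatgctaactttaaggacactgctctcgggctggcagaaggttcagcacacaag
S100a4, chr3:90603520-90603769, plus strand: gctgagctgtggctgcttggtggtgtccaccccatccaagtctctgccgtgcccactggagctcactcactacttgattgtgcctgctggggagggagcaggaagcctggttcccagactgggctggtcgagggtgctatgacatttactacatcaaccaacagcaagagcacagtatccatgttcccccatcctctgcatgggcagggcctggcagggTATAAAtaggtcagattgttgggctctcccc
S100a1 to S100a13, chr3:90514331-90514434, plus strand: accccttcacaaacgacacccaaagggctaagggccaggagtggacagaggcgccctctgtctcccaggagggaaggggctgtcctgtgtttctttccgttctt

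The span between S100a1 and S100a13 is 104 bases long. The motifs were those of AP-1 (TGANTCA), TEAD (GGAATG), C/EBP (TTGCNNAA), NF-kB and STAT (TTCNNNGAA) on both strands, and the TATA box (TATAAA) on the gene's own strand, the last chosen after the data were seen. The window of S100a4 held TATAAA beginning 31 bases before the start, a word found in 7.59% of 32851 promoter windows of the same length. That of S100a8 held it at 30 bases before the start. The window of S100a6 and the span between S100a1 and S100a13 held none of these words. Among the other members the C/EBP word lay in the window of S100a9 (9.56% of all windows) and the AP-1 word lay in that of S100a11 (6.75%). The TEAD, NF-kB and STAT words, in 12.6%, 1.41% and 7.02% of all windows, lay in none of the 7. A match is a description of letters and not of a binding site.

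Of the 13 probe sets 7 had a mean signal of at least 200 over all arrays and were tested together with all such probe sets, 6007 in all. They stood for S100a1, S100a4, S100a6, S100a10 and S100a13. By limma with Benjamini-Hochberg adjustment over the 6007, 1 of the 7 was higher in subconfluent cells and 0 were lower, at an unadjusted p under 0.05 the same 1. Over all tested probe sets 2.75% were called higher and 4.06% lower. In the paired fit 2 of the 7 were higher and 0 lower, against 9.94% and 11.3% of all tested. The log2 difference was above 0 for 5 of the 7, as it was for 51.2% of all tested, and their median was 0.28 against 0.01. The 7 stand for 5 genes, with S100a13 measured more than once, and S100a4 counts as above 0 at 0.01. Their median is the value of 1 probe set, 161121_f_at of S100a13 (limma adjusted p = 0.371). Except for S100a10, and for S100a6 in the paired fit, no member passed the test.

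**Figure D1:**
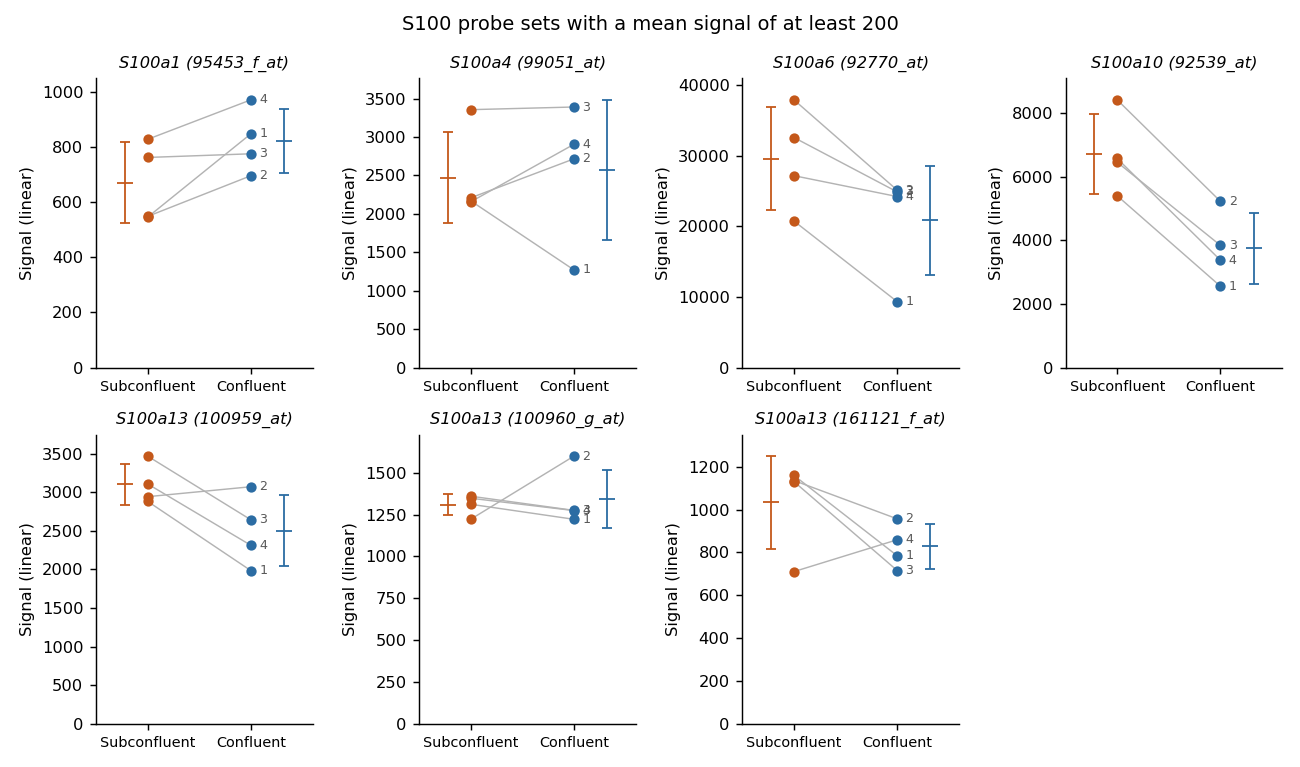
Signal (linear scale, from 0) of the 7 tested S100 probe sets on each array, subconfluent left and confluent right, with grey lines joining arrays of the same experiment number, the number beside each confluent point, and bars for mean ± SD of 4 arrays. All 4 subconfluent points of S100a10 (5399 to 8413) lie above the confluent ones (2555 to 5222), and the groups overlap in the other 6 panels.

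S100a10, which encodes the annexin A2 partner also called p11, was the member with the clear rise in subconfluent cells. Its signals were 5399, 8413, 6454 and 6571 in subconfluent replicates 1 to 4, against 2555, 5222, 3839 and 3373 in confluent replicates 1 to 4. Every subconfluent array was above every confluent one, as for 8.34% of all tested probe sets. The mean was 6709 ± 1252 in subconfluent and 3747 ± 1117 in confluent cells (SD, n = 4 each), a 1.82-fold rise (log2 0.86 ± 0.22 SE, 95% interval 0.38 to 1.34, limma adjusted p = 0.0413). In the paired fit the adjusted p was 0.00258, with a 95% interval of 0.60 to 1.12. The difference was 1.06, 0.68, 0.74 and 0.95 in pairs 1 to 4. It was 0.89 with chip lot as a block (adjusted p = 0.0339), 1.06 within lot A (a single array of each group) and 0.75 within lot C (adjusted p = 0.241).

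The unpaired call of S100a10 stood close to its threshold. It ended without confluent replicate 1 (adjusted p = 0.0860), confluent replicate 3 (0.0820), confluent replicate 4 (0.0943), and without subconfluent replicate 1 (0.0573), 2 (0.103), 3 (0.0732) or 4 (0.0923). It also ended without the signal minimum (0.0727), though the paired call was kept there (0.00834). Without confluent replicate 2 it was kept (0.0155), and in the paired fit it was kept without any single pair (0.00496 to 0.0208). The log2 difference lay between 0.69 and 1.03 in the fits without 1 array. A second probe set of S100a10, 162340_r_at, lay under the minimum, with 98.9 to 183.8 in subconfluent and 56.4 to 147.2 in confluent cells, so the groups overlapped there.

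S100a6 (calcyclin), known as a gene that growing and stimulated cells express strongly, was higher in each pair but passed only in the paired fit. Its signals were 20748, 37908, 32575 and 27171 in subconfluent replicates 1 to 4, against 9328, 25114, 24871 and 24214 in confluent replicates 1 to 4. Subconfluent replicate 1 lay below confluent replicates 2, 3 and 4, so the groups overlapped. The mean was 29601 ± 7351 in subconfluent and 20881 ± 7712 in confluent cells (SD, n = 4 each), and the log2 difference was 0.57 ± 0.31 (SE, limma adjusted p = 0.273). In the paired fit S100a6 rose 1.49-fold (0.57 ± 0.15 SE, 95% interval 0.24 to 0.91, adjusted p = 0.0258). The differences in pairs 1 to 4 were 1.15, 0.59, 0.39 and 0.17, all above 0 but of unequal size. A higher signal in all 4 pairs was seen in 20.7% of all tested probe sets.

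Confluent replicate 1 weighed heavily on S100a6. Its signal of 9328 stood far below the other confluent arrays, which lay between 24214 and 25114. Without that array the unpaired difference was 0.22 (adjusted p = 0.567). Without pair 1 the paired difference was 0.38 (adjusted p = 0.0734), without pair 2 0.57 (0.0512) and without pair 3 0.64 (0.0650), so the paired call ended in each. Without pair 4 it was 0.71 (0.0351). With chip lot as a block the difference was 0.64 (adjusted p = 0.0730), while lot A by itself gave 1.15 and lot C by itself 0.26 (adjusted p = 0.657). Without the signal minimum the paired adjusted p was 0.107. Of the 7 tested probe sets 5 were lowest among the confluent arrays on replicate 1, against 33.4% of all tested.

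**Figure D2:**
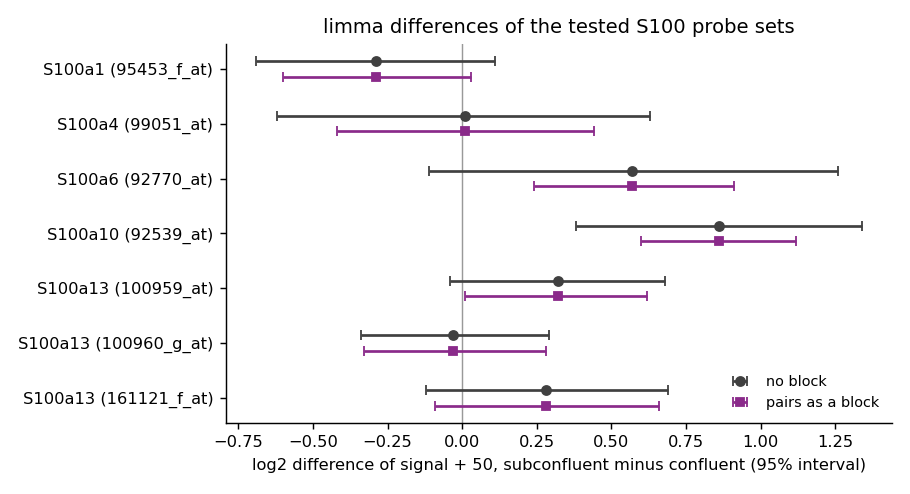
limma log2 difference (signal + 50, subconfluent minus confluent) of the 7 tested S100 probe sets with 95% intervals, without a block (circles) and in the paired fit (squares). The interval of S100a10 lies above 0 in both fits (0.38 to 1.34 and 0.60 to 1.12), that of S100a6 in the paired fit alone (0.24 to 0.91 against -0.11 to 1.26), and that of the first S100a13 probe set also only in the paired fit (0.01 to 0.62), where its adjusted p was 0.126.

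S100a4, which binds the heavy chain of non-muscle myosin and is used in mouse tissue as a fibroblast marker, showed no difference that could be told from the spread. Its signals were 2169.6, 2209, 3356 and 2158 in subconfluent replicates 1 to 4, against 1270, 2717, 3391 and 2907 in confluent replicates 1 to 4. Replicate 3 was the highest in both groups. The mean was 2473 ± 589 in subconfluent and 2571 ± 913 in confluent cells (SD, n = 4 each). The log2 difference was 0.01 ± 0.28 (SE, limma adjusted p = 0.994), with a 95% interval of -0.62 to 0.63, or -0.42 to 0.44 in the paired fit. Changes within these intervals in either direction remain compatible with the data. Pair 1 was 0.75 and pairs 2 to 4 were -0.29, -0.01 and -0.42. Without confluent replicate 1 the difference was -0.30 (adjusted p = 0.415).

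Some other fibroblast and pericyte markers did move in the same samples. Of the 9 that were tested 4 fell and 0 rose, against 4.06% and 2.75% of all tested probe sets, and 6 fell in the paired fit, against 11.3%, and their median log2 difference was -1.04. The 4 were Dcn (-2.04, limma adjusted p = 0.00135), a matrix proteoglycan gene, the collagen genes Col1a2 (-1.04, adjusted p = 0.0163) and Col3a1 (-1.31, adjusted p = 0.0356), and the proteoglycan gene Lum (-2.70, adjusted p = 0.0317). Among the others tested, Col1a1 (-0.39), Pdgfra (-1.09) and Thy1 (-0.69) were lower, and Fbln1 (0.14) and Fbln2 (0.2) were higher. None of these passed without the block, and Col1a1 and Pdgfra fell in the paired fit. The summed signal of the 13 markers with a probe set ran from 35876 to 50756 on subconfluent and from 62672 to 93285 on confluent arrays. Leaving out 1 array took the adjusted p up to 0.0518 for Col1a2, 0.0923 for Col3a1 and 0.0747 for Lum, and without the signal minimum it was 0.0602 for Col3a1 and 0.0567 for Lum. Lum had 6129 on confluent replicate 1 and 542.1 to 984.9 on the other confluent arrays, and its difference without that array was -1.93 (adjusted p = 0.00985). Of 3 tested smooth muscle markers 1 fell and 0 rose, against 4.06% and 2.75% of all tested probe sets. In the paired fit 1 fell and 2 rose, against 11.3% and 9.94%. With 3 genes the median, 1.14, is the value of 1 gene, Acta2. Mylk, a myosin kinase gene, fell (-1.84, limma adjusted p = 0.0163). The actin-binding protein gene Tagln was 1.47 (limma adjusted p = 0.108, and 0.0102 in the paired fit). The smooth muscle actin gene Acta2 was 1.14 (adjusted p = 0.228, and 0.0172 in the paired fit). Both were higher in all 4 pairs, as in 20.7% of all tested probe sets, and were named after their values were seen. The paired call of Acta2 ended without pair 1 (0.0704) or pair 4 (0.0721). Of 2 tested epithelial and mesothelial markers 0 passed without the block (1 at an unadjusted p under 0.05). In the paired fit 1 fell and 0 rose, against 11.3% and 9.94% of all tested. The gene that fell was Upk3b (-0.85, limma adjusted p = 0.161, and 0.0271 in the paired fit). Whether S100a4 differed from these markers was not tested.

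S100a13, known for the release of FGF1 and interleukin-1 alpha without a signal peptide, was measured by 4 probe sets that did not give 1 direction. The first, 100959_at, had 2882, 2942, 3468 and 3108 in subconfluent replicates 1 to 4, against 1985, 3071, 2643 and 2312 in confluent replicates 1 to 4. Confluent replicate 2 reached into the subconfluent range, and the other 3 confluent arrays lay below it. Its log2 difference was 0.32 ± 0.16 (SE, limma adjusted p = 0.248, and 0.126 in the paired fit). For 100960_g_at, whose name marks a sequence shared with another probe set of the gene, the range was 1222 to 1359.9 in subconfluent and 1222 to 1599.8 in confluent cells (-0.03, adjusted p = 0.935). For 161121_f_at, whose name marks a sequence shared within a family, it was 710.6 to 1159.5 in subconfluent and 715.3 to 956.7 in confluent cells (0.28, adjusted p = 0.371). The last, 161862_i_at, had 63.0 to 124.3 in subconfluent and 74.8 to 158.2 in confluent cells and was not tested.

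S100a1, a regulator of calcium release and uptake in muscle, had 1 tested probe set, 95453_f_at, named as one with a shared sequence. Its signals were 545.3, 548.2, 762.1 and 827.7 in subconfluent replicates 1 to 4, against 847.8, 695.8, 775.4 and 971.0 in confluent replicates 1 to 4. The subconfluent array was the lower one in all 4 pairs, by 0.59, 0.32, 0.02 and 0.22 on the log2 scale, as in 22.1% of all tested probe sets. The groups overlapped, and the difference was -0.29 ± 0.18 (SE, limma adjusted p = 0.352, and 0.173 in the paired fit). The other S100a1 probe sets, 95452_i_at and 95454_at, ran from 11.3 to 52.6 in subconfluent and from 4.0 to 73.9 in confluent cells. These signals are low enough that no order is read from them. Thus S100a1 and S100a13, whose starts share the 104-base span printed above, had differences of opposite sign in 2 of the 3 tested S100a13 probe sets, none of which passed.

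S100a8 and S100a9, the subunits of the antimicrobial protein calprotectin of neutrophils and monocytes, lay under the signal minimum. S100a8 had 81.8, 105.2, 134.1 and 267.9 in subconfluent replicates 1 to 4, against 73.5, 32.5, 77.1 and 130.3 in confluent replicates 1 to 4. It was higher in all 4 pairs (0.09, 0.91, 0.53 and 0.82), with overlap between the groups. S100a9 had 39.7, 34.7, 18.5 and 57.3 in subconfluent replicates 1 to 4, against 6.2, 15.2, 20.3 and 25.7 in confluent replicates 1 to 4. With no minimum the log2 differences were 0.59 for S100a8 (limma adjusted p = 0.399, and 0.155 in the paired fit) and 0.38 for S100a9 (adjusted p = 0.264, and 0.184 in the paired fit). In that fit without a minimum 0.58% of 12422 probe sets were called higher and 1.09% lower, or 2.91% and 4.03% in the paired fit. Of 21 neutrophil and macrophage markers 3 reached the minimum and 0 of these passed (0 at an unadjusted p under 0.05). Their summed signal ran from 2090 to 3219 on subconfluent and from 2635 to 3106 on confluent arrays. The 3 were Csf3r (mean 736 in subconfluent and 1106 in confluent cells), Elane (280 and 348) and Laptm5 (243 and 196). The leukocyte marker Ptprc averaged 12.8 and 9.57, and Itgam 22.1 and 28.1, which are among the lowest of the list.

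**Figure D3:**
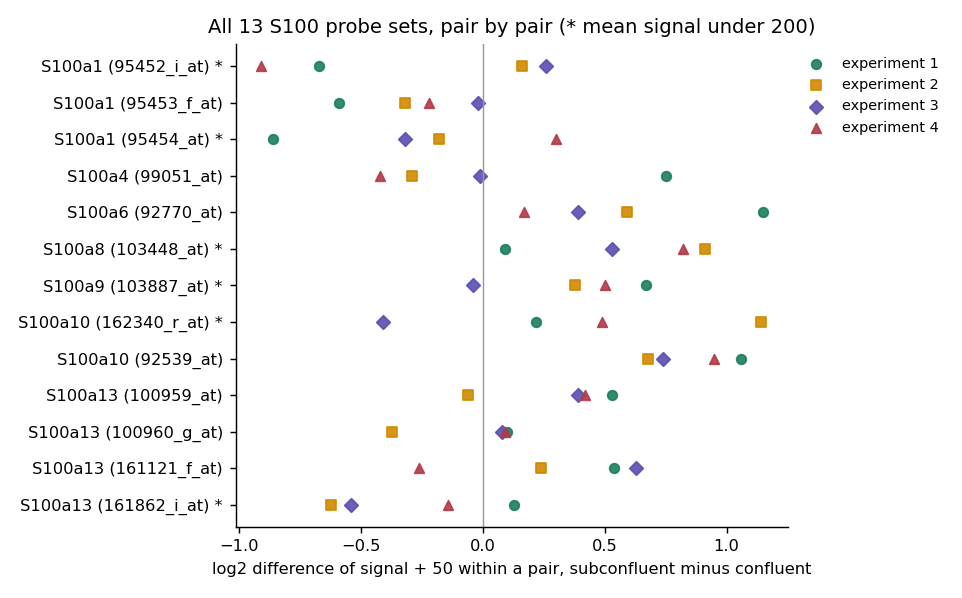
log2 difference (signal + 50) within each of the 4 experiment pairs, subconfluent minus confluent, for all 13 S100 probe sets, with an asterisk for the 6 whose mean signal was under 200. All 4 pairs of S100a10 (92539_at) lie between 0.68 and 1.06, those of S100a6 are above 0 but spread from 0.17 to 1.15, and those of S100a4 lie on both sides of 0.

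The genes whose products bind S100 proteins inside the cell were compared next, first the annexins and Ahnak. Anxa2, Ahnak, Cacybp and Anxa1 are named because they encode the best known partners, with their values already seen. Anxa2, which forms a heterotetramer with S100A10 at the membrane, had 7548, 9577, 6487 and 7747 in subconfluent replicates 1 to 4, against 3479, 7541, 5017 and 5078 in confluent replicates 1 to 4. Only confluent replicate 2 reached into the subconfluent range. The log2 difference was 0.61 ± 0.22 (SE, limma adjusted p = 0.112), and in the paired fit Anxa2 rose 1.52-fold (adjusted p = 0.0203). Ahnak, a large scaffold that docks onto this complex, averaged 9934 ± 4292 in subconfluent and 7333 ± 2431 in confluent cells (SD, n = 4 each). Its difference was 0.36 (limma adjusted p = 0.60, and 0.138 in the paired fit). Anxa1, the partner of S100A11, averaged 10782 ± 408 in subconfluent and 12005 ± 586 in confluent cells (-0.15, limma adjusted p = 0.444). Every subconfluent array lay below every confluent one, as for 8.54% of all tested probe sets, but the difference was small.

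Cacybp encodes calcyclin-binding protein, the partner of S100A6 that takes part in protein ubiquitination. It had 1741, 873.3, 792.5 and 962.4 in subconfluent replicates 1 to 4, against 595.6, 888.8, 396.5 and 558.5 in confluent replicates 1 to 4. Subconfluent replicate 1 was the highest array, and confluent replicate 2 lay among the subconfluent ones. The difference was 0.77 ± 0.27 (SE, limma adjusted p = 0.104), and in the paired fit Cacybp rose 1.71-fold (adjusted p = 0.0344). That paired call ended without pair 1 (adjusted p = 0.135), pair 3 (0.126) or pair 4 (0.104), and that of Anxa2 without pair 1 (0.0522) or pair 4 (0.0754). Of 12 tested partner genes 0 passed limma without the block (3 at an unadjusted p under 0.05), and 3 rose and 0 fell with it, against 9.94% and 11.3% of all tested. The third was Mdm2, the p53 ubiquitin ligase gene (0.50, adjusted p = 0.0842, and 0.0257 in the paired fit, up to 0.0911 without 1 pair). The list's median was 0.10. Myh9, the myosin partner of S100A4, was 0.03 (adjusted p = 0.958).

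**Figure D4:**
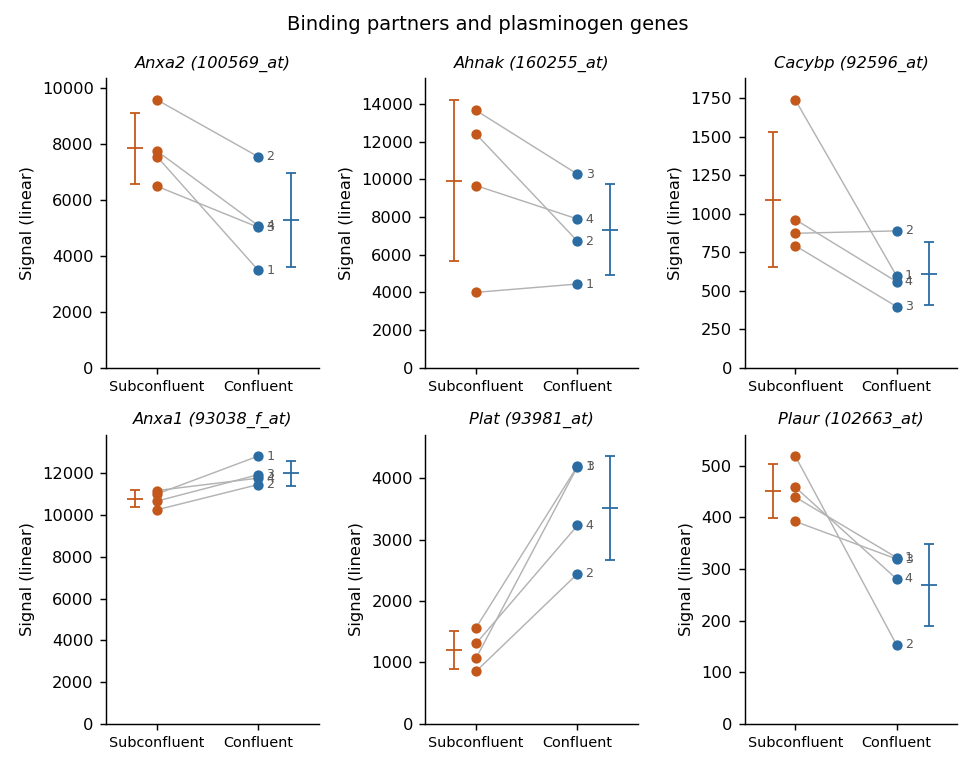
Signal (linear scale, from 0) of 4 genes for S100 binding partners (Anxa2, Ahnak, Cacybp, Anxa1) and 2 plasminogen system genes (Plat, Plaur) on each array, subconfluent left and confluent right, with lines joining pairs and bars for mean ± SD of 4 arrays. Plat shows no overlap, at 856.9 to 1569 in subconfluent and 2446 to 4202 in confluent cells, and Plaur runs the other way, at 392.3 to 518.9 and 152.8 to 322.1. Anxa1 also shows no overlap, at 10258 to 11180 in subconfluent and 11468 to 12833 in confluent cells. Of all tested probe sets 8.34% lay wholly higher and 8.54% wholly lower in subconfluent cells.

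S100A10 on the cell surface is known to hold plasminogen and its activator, so the genes of that system were set beside it. Of 5 tested, 1 fell and 0 rose, against 4.06% and 2.75% of all tested probe sets. Plat, the tissue plasminogen activator gene, had 1073, 856.9, 1569 and 1310 in subconfluent replicates 1 to 4, against 4192, 2446, 4202 and 3234 in confluent replicates 1 to 4. It was 2.85-fold lower in subconfluent cells (log2 -1.51 ± 0.23 SE, limma adjusted p = 0.00629), the direction opposite to that of S100a10 and without overlap, as for 8.54% of all tested probe sets, and within lots A and C it was -1.92 and -1.52. In the paired fit 1 rose and 3 fell, against 9.94% and 11.3% of all tested. Plaur, the urokinase receptor gene, was the one that rose (0.69, adjusted p = 0.0724, and 0.0472 in the paired fit), a call that ended without any single pair (0.0693 to 0.120). The other genes that fell in that fit were the plasminogen receptor gene Plgrkt (-0.54, adjusted p = 0.0316 in the paired fit, up to 0.117 without 1 pair) and the inhibitor gene Serpinb2 (-0.89, adjusted p = 0.0116 in the paired fit). The list's median was -0.54.

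Among receptors for secreted S100 proteins and their signalling proteins 4 of 7 genes were tested, with a median of -0.53. Irak1, a kinase downstream of Toll-like receptors, fell 1.58-fold (log2 -0.66 ± 0.16 SE, limma adjusted p = 0.0385) and 0 rose, against 4.06% lower and 2.75% higher over all tested probe sets. The call of Irak1 ended in 7 of 8 fits without 1 array (adjusted p up to 0.0997) and without the signal minimum (0.0822). In the paired fit Irak1 passed (0.0135), but not without pair 1 (0.0566), pair 3 (0.0603) or pair 4 (0.0571). Cd14, a co-receptor of TLR4, was -0.70 (adjusted p = 0.0563, and 0.0228 in the paired fit, up to 0.105 without 1 pair). Bsg, which encodes a receptor for S100A9, was -0.10 (adjusted p = 0.792). Ager, the gene of the receptor for advanced glycation end products, averaged 100 ± 9.95 in subconfluent and 156 ± 84.7 in confluent cells and lay under the minimum.

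Other calcium-binding EF-hand proteins gave 1 rise and 1 fall among 18 tested genes, with a median of 0.09. Over all tested probe sets 2.75% rose and 4.06% fell, so these counts say little about the list. Capn2, a calcium-activated protease gene, rose 1.87-fold (log2 0.90 ± 0.16 SE, limma adjusted p = 0.0158). Its signals did not overlap, at 1054 to 1459.8 in subconfluent and 565.7 to 734.7 in confluent cells, as for 8.34% of all tested probe sets. Nucb1, a calcium store protein gene of the Golgi, fell 1.78-fold (-0.83 ± 0.21 SE, adjusted p = 0.0429). It was also without overlap, at 631.5 to 1133 in subconfluent and 1242 to 1947 in confluent cells, as for 8.54% of all tested probe sets. The call of Nucb1 ended in 6 of 8 fits without 1 array (adjusted p up to 0.104) and without the signal minimum (0.0697), and that of Capn2 ended without subconfluent replicate 4 (adjusted p = 0.0509) and with chip lot as a block (0.66, adjusted p = 0.0522). In the paired fit 1 of the 18 rose and 2 fell, against 9.94% and 11.3% of all tested, so these counts also say little about the list. Beside Nucb1, Rcn1, a calcium-binding protein gene of the endoplasmic reticulum, was lower in that fit (-0.60, adjusted p = 0.0128, or 0.0663 without pair 3). The genes of the cargo released with S100A13, Fgf1 and Il1a, averaged 16.9 and 24.5 in subconfluent and 39.8 and 21.5 in confluent cells, under the minimum.

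The genes with the array pattern most like that of S100a10 and S100a6 were sought among 5442 other tested probe sets with 1 symbol, by Pearson's r of log2 values over the 8 arrays. For S100a10 these were Tubb5, a beta tubulin gene (r = 0.987), the nucleoside transporter gene Slc29a1 (0.983) and Ezh2, a histone methyltransferase gene (0.979). Their log2 differences were 0.72, 0.83 and 0.92. For S100a6 they were Cox7a2, of the respiratory chain (0.985), the glutamate receptor gene Grid1 (0.976) and Mcm4, of the replicative helicase (0.970), with differences of 0.32, 0.65 and 0.97. All 6 were chosen as the highest of many, the points share arrays and scaling, and the difference between the groups is part of each r, so these values only describe the pattern.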

How the data were processed

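Each probe set has 1 signal on a linear scale, which the authors obtained by Affymetrix's statistical algorithm with a target of 500 per array, per the labels. Software version and genome build are not given in the sources used here, and detection calls were not used. No further normalization was applied. Gene symbols came from the array annotation (10855 probe sets with 1 symbol, 396 with several, 1237 with none). Of 12488 probe sets 66 controls were left out, and the 6007 whose mean signal reached 200 entered the tests on log2(signal + 50), which shrinks the fold of low genes.

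The comparison of subconfluent with confluent arrays used limma 3.58.1 under R 4.3.3 (variance trend, no block, 6 residual degrees of freedom, two-sided, Benjamini-Hochberg adjustment over all 6007, threshold 0.05). Whether the replicates are separate cultures is not stated beyond the experiment numbers, so p-values measure the spread between arrays. Deviations from the group means correlated at 0.486, 0.357, 0.516 and 0.348 between arrays of the same number (highest with another number 0.0681), so a paired fit with the number as a block was added. The fit was tested on simulated data. Alternatives were other pseudocounts and signal minimums, quantile normalization, median centring, no variance trend, the scale factor as covariate, chip lot as a block or alone, and leaving out each array or pair. The paired fit without a minimum was chosen after seeing the data. For list genes the probe set with the highest mean stood for the gene. By rule, list members that passed without the block (up to 6), or the one with the smallest p, were named. Other list genes and the marker genes were named outside this rule, with their values available. The members and lists were chosen with earlier results of these data known. Tables and plots used Python 3.11.15, pandas 2.3.3, numpy 2.4.6 and matplotlib 3.10.9.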

Additional observations from a re-analysis of the deposited data

Results flagged for a closer look

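In 26 groups of 4 signals (13 S100 probe sets, subconfluent and confluent), 4 held an array far from the others, its gap to the nearest being above Dixon's 95% critical share of the group's range. Chance gives about 1 such group in 20 if values are normal and groups independent. These groups share arrays, and some share a gene, so the count is a description only. S100a6 had its lowest confluent signal, 9327.6, on confluent replicate 1, against 24213.7 on the nearest array (0.943 of the range). S100a4 had its highest subconfluent signal, 3356.3, on subconfluent replicate 3, against 2209.3 (0.957). The S100a13 probe set 100960_g_at had its highest confluent signal, 1599.8, on confluent replicate 2, against 1275.1 (0.859). The S100a13 probe set 161121_f_at had its lowest subconfluent signal, 710.6, on subconfluent replicate 4, against 1130.6 (0.936). The 4 lie on 4 different arrays.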

How the results depend on the processing

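The number of S100 probe sets called higher in subconfluent cells was 1 without a block and 2 with the replicate numbers as a block. It was 0 without the signal minimum (1 in the paired fit without it) and 0 within chip lot C. It was 0 to 1 without 1 array, and 1 to 2 in the paired fits without 1 pair. The number called lower was 0 in each of these. The causes were not tested.

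Some differences that passed no test changed sign. S100a1 was 0.03 within lot C. S100a4 was -0.02 after quantile normalization and -0.33 within lot C, -0.30 to 0.16 without 1 array and -0.24 to 0.15 without 1 pair. The S100a13 probe set 100960_g_at was 0.10 in lot A, 0.08 in lot C, 0.09 with lot as a fixed block and 0.01 with lot as a random block. It was -0.07 to 0.06 without 1 array and -0.07 to 0.09 without 1 pair. S100a3 was -0.06 within lot C and -0.02 to 0.21 without 1 pair, and Ahnak was -0.15 within lot A. Lot A held 1 array of each group and gave no test. Low signals near the background limit S100a8, S100a9 and the weaker probe sets.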

Other observations

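The S100 genes stand in a cluster on chromosome 3, and the 26 protein-coding genes within 5 genes of a member were read from the same fit. Of these 12 had a probe set with 1 symbol and 6 were tested. By limma 0 passed in either direction (1 at an unadjusted p under 0.05), against 2.75% higher and 4.06% lower over all tested probe sets. In the paired fit 0 rose and 1 fell, against 9.94% and 11.3%. The 1 was Snapin, a vesicle docking gene (log2 -0.52, adjusted p = 0.0268 in the paired fit and 0.0507 without the block). The median log2 difference of the 6 tested neighbours, which include S100a14 and S100a3, was 0.08. Of 9 further genes whose symbols begin with S100, among them the binding protein gene S100pbp, 7 had a probe set. The 2 tested were S100a14 and S100a3. Neither passed (0 at an unadjusted p under 0.05). S100a3 was 0.12 (adjusted p = 0.752).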
